A study of Mus musculus with 12 samples.

Results

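The genes described here take part in ferroptosis, in iron handling or in the glutathione system. They are 38 named genes, listed for these roles when earlier results of the data were already known, among the 55450 genes with counts. Each was measured by RNA-Seq in whole cerebellum and whole cerebral cortex of 1-month-old mice, in 12 libraries. There were 3 WT cerebella, 3 *Snx14*-KO cerebella, 3 WT cortices and 3 *Snx14*-KO cortices, and the titles give a cerebellum and a cortex to each of 3 mice per genotype. The *Snx14*-KO mice carried a frameshift deletion of *Snx14*, made with Cas9 on a C57BL/6J background, on both alleles and in every cell of the body, and all of them descend from a single such allele. WT mice carried none of it, no mouse was treated, and the tissue was not sorted, so the labels call its cell type a mix. In such tissue, fewer cells of a type and less RNA per cell cannot be told apart.

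Ferroptosis is a form of cell death driven by iron and by the oxidation of polyunsaturated fatty acids in membrane phospholipids. Cells hold it off by importing cystine, from which they make glutathione, and the glutathione peroxidase GPX4 uses glutathione to reduce lipid peroxides. Iron enters cells with transferrin or through metal transporters, is stored in ferritin and leaves through ferroportin, and the brain is rich in both iron and easily oxidized lipids. When iron is scarce, iron regulatory proteins bind a short hairpin in the mRNA, the iron-responsive element, which blocks translation from the 5′ end of ferritin and ferroportin mRNAs and stabilizes the transferrin receptor mRNA from its 3′ end.

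The hairpins are shown because iron regulatory proteins can bind elements of this form under low iron. In the untranslated sequence of the mouse transcripts (GENCODE vM21, GRCm38), the loop CAGTGN after a C and 5 further bases, with those 5 bases paired to the 5 that follow the loop and G opposite T allowed, was found on the transcript strand in 4 of the 38 genes, at 7 sites. Of 21842 protein-coding genes, 160 (0.733%) held such a match. The requirement for pairing and for untranslated sequence was added after the letters alone had matched most of the genes. Binding was not measured. Elements with an interrupted stem or another loop would be missed, so a gene without a match may still hold one. The ferritin heavy chain *Fth1* holds its match at chr19:9982733-9982760 (plus strand), the ferritin light chain *Ftl1* at chr7:45459779-45459806 (minus strand) and ferroportin *Slc40a1* at chr1:45925465-45925492 (minus strand), each in the 5′ untranslated sequence. The transferrin receptor *Tfrc* holds 4 matches in its 3′ untranslated sequence, at chr16:32631220-32631247, chr16:32631599-32631626, chr16:32631664-32631691 and chr16:32631711-32631738 (plus strand), given below in this order. Each line runs 5′ to 3′ over 28 bases, and the capitals mark the 6 bases of the loop.
*Fth1*: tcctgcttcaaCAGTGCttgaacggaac
*Ftl1*: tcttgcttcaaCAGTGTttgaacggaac
*Slc40a1*: aacttcagctaCAGTGTtagctaagttt
*Tfrc*, site 1: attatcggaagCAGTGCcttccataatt
*Tfrc*, site 2: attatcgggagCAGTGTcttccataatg
*Tfrc*, site 3: tatatcggagaCAGTGAtctccatatgt
*Tfrc*, site 4: attatcgggaaCAGTGTttcccataatt

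Between 16672589 and 19887427 counts fell on genes in each library. Levels are given as CPM, counts scaled to library size with edgeR's TMM factors. The count of *Snx14*, the targeted gene, was 63.6 to 67.0 CPM in WT and 10.4 to 11.2 CPM in *Snx14*-KO cerebella, and 53.6 to 59.8 CPM in WT and 7.69 to 8.50 CPM in *Snx14*-KO cortices, so each library matched its label. Tissue labels also matched, since 8 granule cell genes summed to 2919 to 4129 CPM in cerebella and 159 to 186 CPM in cortices, and 7 forebrain excitatory neuron genes to 147 to 222 CPM and 3400 to 4266 CPM. Some libraries stood apart in genes of other cell types. *Snx14*-KO cerebellum 3 had 709 CPM over 13 microglia and macrophage genes, while the other 5 cerebella had 230.5 to 313 CPM. *Snx14*-KO cortex 2 had 408 CPM over 13 meningeal fibroblast genes, while the other 5 cortices had 104 to 159.6 CPM, and it had the fewest counts on 10 oligodendrocyte genes, 5742 CPM against 7516 to 8526 CPM. The 8 choroid plexus genes summed to 83.7, 2750 and 7453 CPM in the 3 WT cerebella and 973 to 3216 CPM in the *Snx14*-KO cerebella.

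Per kilobase of exon, the 2 ferritin chains and *Gpx4* had the highest levels of the 38 genes in WT tissue. In WT cerebellum, *Fth1* was at 441 ± 18.5 CPM per kilobase (SD, n = 3), *Ftl1* at 225 ± 5.11 and *Gpx4* at 180 ± 4.63, and these 3 ranges did not overlap. The glutathione peroxidase *Gpx1* and the mitochondrial channel *Vdac2* came next, at 51.6 ± 4.59 and 46.8 ± 3.51 CPM per kilobase, a difference within their spread. WT cortex gave the same first 4 genes in the same order, with *Fth1* at 404 ± 34.0 CPM per kilobase and *Gpx4* at 169 ± 12.4. At the other end stood the lipoxygenases *Alox5* and *Alox12*, enzymes that oxidize polyunsaturated fatty acids, and *Gch1*, which makes the first intermediate of tetrahydrobiopterin. *Alox12* had 0 to 13 counts per library. It was the one gene of the 38 that the low-count filter removed from each quasi-likelihood test with all libraries. Some tests with a library left out kept it, and DESeq2 gave it an adjusted p except between genotypes in cortex. The cystine transporter subunit *Slc7a11* was at 1.74 ± 0.0972 CPM per kilobase in WT cerebellum, and its partner *Slc3a2*, which also serves other amino acid transporters, at 28.2 ± 2.03.

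**Figure D1:**
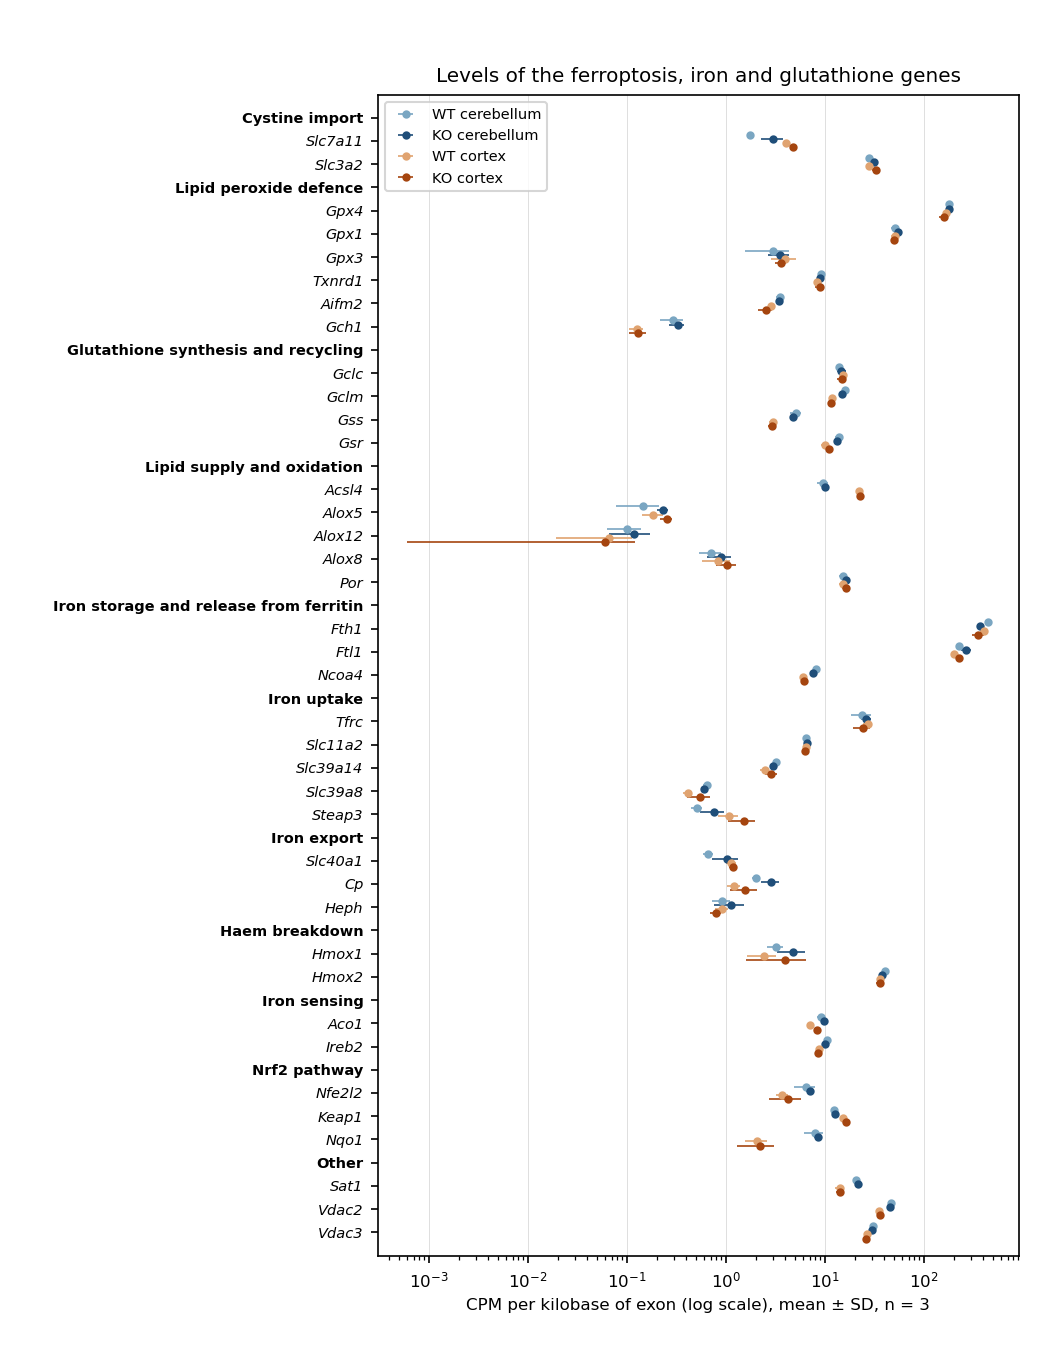
Level of each of the 38 genes in the 4 groups, ordered by role, in CPM per kilobase of exon on a log axis, with points for means and bars for the SD of 3 libraries. *Fth1*, *Ftl1* and *Gpx4* lie farthest right in each group, and *Alox12* lies farthest left, where the bar of the *Snx14*-KO cortices is shortened because its SD exceeds its mean.

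The first question was whether the genes differ between *Snx14*-KO and WT cerebellum, the tissue at the centre of the study. None of the 37 tested genes (0) was called by edgeR's quasi-likelihood test at an adjusted p under 0.05 (Benjamini-Hochberg over 18201 genes, 0.00549% of which were called). The unadjusted p was under 0.05 for 7 of the 37 (18.9%), against 8.15% of all genes tested. Of these 7, *Slc7a11*, *Ftl1*, *Slc40a1*, *Cp*, *Steap3* and *Hmox1* were higher in *Snx14*-KO cerebella (5.78% of all genes) and *Fth1* was lower (2.37% of all genes). The median log2 fold change (log2FC) over the 37 genes was 0.08, and 24 of them were above 0, while the median of all genes was -0.00 and 49.9% were above 0. The groups did not overlap for 7 genes, 3 higher (*Slc7a11*, *Ftl1* and *Slc40a1*) and 4 lower (*Fth1*, *Ncoa4*, *Slc39a14* and *Hmox2*), against 6.22% and 6.32% of all genes. DESeq2, the tool of the original work, called *Slc7a11* and *Fth1* among 38 genes with an adjusted p, where it called 0.996% of all genes.

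*Slc7a11* had the largest fold change of the 37 tested genes in cerebellum. This gene (chr3:49892526-50443614, minus strand), which carries cystine into the cell in exchange for glutamate, was at 22.7, 25.4 and 24.5 CPM in WT cerebella 1, 2 and 3 and at 51.1, 30.8 and 44.2 CPM in *Snx14*-KO cerebella 1, 2 and 3. All *Snx14*-KO cerebella lay above all WT cerebella, and *Snx14*-KO cerebellum 2 lay closest to them. The log2FC was 0.81 (SE 0.163), a mean of 42.0 against 24.2 CPM, with an adjusted p of 0.178 by the quasi-likelihood test and of 0.000375 by DESeq2. Without *Snx14*-KO cerebellum 2, the log2FC was 0.98 and passed the quasi-likelihood test (adjusted p = 0.00192), and with any other library left out it was 0.64 to 0.84 and did not pass. It was 0.76 without the microglia-rich *Snx14*-KO cerebellum 3. The 7 forebrain excitatory neuron genes summed to 222, 150 and 201 CPM in *Snx14*-KO cerebella 1, 2 and 3, the same order as *Slc7a11*, and to 147, 154 and 148 CPM in WT cerebella. The 13 meningeal fibroblast genes also had this order, at 523, 480.5 and 520 CPM, against 180, 359 and 344 CPM in WT cerebella. The sums for the other cell types examined did not have it. *Slc7a11* was higher in cortex than in cerebellum in WT mice, and the part of forebrain or meningeal cells in its value was not tested.

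*Slc3a2*, the other subunit of the cystine transporter, was at 107, 98.9 and 92.6 CPM in WT cerebella and 104, 109.9 and 121 CPM in *Snx14*-KO cerebella. The groups overlapped through *Snx14*-KO cerebellum 1. Its log2FC was 0.18 (SE 0.0829, adjusted p = 0.647 by the quasi-likelihood test), and 0.11 to 0.23 with a library left out.

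The 2 ferritin chains stood on opposite sides of 0. *Fth1* (chr19:9980598-9985098, plus strand), the chain that oxidizes iron for storage, was at 1597, 1519.8 and 1469 CPM in WT cerebella and at 1268, 1292 and 1296 CPM in *Snx14*-KO cerebella. Every *Snx14*-KO cerebellum lay below every WT cerebellum, and the *Snx14*-KO libraries differed little among themselves. The log2FC was -0.24 (SE 0.0680), with an adjusted p of 0.363 by the quasi-likelihood test and of 0.0198 by DESeq2, and it stayed between -0.27 and -0.21 with any library left out.

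*Ftl1* (chr7:45457944-45459884, minus strand), the chain that helps to form the iron core, was at 298, 298 and 309.5 CPM in WT cerebella and at 317, 361 and 401 CPM in *Snx14*-KO cerebella. The groups did not overlap, and *Snx14*-KO cerebellum 3 was the highest. Its log2FC was 0.27 (SE 0.0926, adjusted p = 0.445 by the quasi-likelihood test) and 0.17 without that library, where the unadjusted p was no longer under 0.05. Of the exon bases of *Ftl1*, 34.6% are also exon of *Gm10252* or *Gm22133*, where a pair of reads counts for each gene. Both ferritin genes have near-identical copies elsewhere in the genome, and reads that map to several places were left out of the counts, so their levels are uncertain to that extent.

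Set against each other within a library, the counts of *Fth1* and *Ftl1* had a ratio of 5.36, 5.11 and 4.75 in WT cerebella and of 4.0, 3.58 and 3.23 in *Snx14*-KO cerebella. In cortex the ratio was 5.14, 5.47 and 5.02 in WT and 4.11, 3.29 and 4.83 in *Snx14*-KO mice. The *Snx14*-KO ratios lay below the WT ratios in each tissue, with *Snx14*-KO cortex 3 closest to WT. The ratio was chosen after the values of both genes had been seen, so no test is given. Ferritinophagy receptor *Ncoa4*, which carries ferritin to the lysosome, was 69.7 to 73.0 CPM in *Snx14*-KO and 74.0 to 77.4 CPM in WT cerebella, with no overlap but a log2FC of only -0.08 (SE 0.0621).

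The 3 iron export genes all had a log2FC above 0 in cerebellum, and 0 of them passed the adjusted test. Ferroportin *Slc40a1*, the known exporter of iron from cells, was at 5.95, 6.64 and 5.26 CPM in WT and at 7.22, 12.2 and 8.07 CPM in *Snx14*-KO cerebella. The groups did not overlap, and *Snx14*-KO cerebellum 2 was well above the other cerebella. Its log2FC was 0.64 (SE 0.213, adjusted p = 0.430 by the quasi-likelihood test) and 0.37 without that library.

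*Cp*, ceruloplasmin, a copper enzyme that oxidizes exported iron, was at 19.3, 21.4 and 17.8 CPM in WT and at 30.3, 20.8 and 30.6 CPM in *Snx14*-KO cerebella. *Snx14*-KO cerebella 1 and 3 were above all WT cerebella, and *Snx14*-KO cerebellum 2 was among them. The log2FC was 0.50 (SE 0.154, adjusted p = 0.393), and it was 0.65 without *Snx14*-KO cerebellum 2, where it passed the quasi-likelihood test (adjusted p = 0.0295). The related oxidase *Heph*, hephaestin, had a log2FC of 0.33 (SE 0.260), which was 0.06 without *Snx14*-KO cerebellum 1, and ranges of 5.34 to 8.16 CPM in WT and 5.73 to 11.6 CPM in *Snx14*-KO cerebella, which overlapped.

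Of the 5 iron uptake genes, *Steap3*, which reduces iron in the endosome, was the one with an unadjusted p under 0.05. It was at 2.50, 3.23 and 3.06 CPM in WT and at 4.25, 3.14 and 5.52 CPM in *Snx14*-KO cerebella, and *Snx14*-KO cerebellum 2 again lay among the WT libraries. The log2FC was 0.57 (SE 0.252, adjusted p = 0.610) and 0.34 without *Snx14*-KO cerebellum 3. The transferrin receptor *Tfrc*, whose 3′ hairpins are printed above, ranged from 123 to 184 CPM in WT and from 143 to 176 CPM in *Snx14*-KO cerebella, a log2FC of 0.16 (SE 0.147) that lay between 0.05 and 0.36 with a library left out. For the metal transporters *Slc11a2*, *Slc39a14* and *Slc39a8* it lay between -0.09 and 0.05.

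*Hmox1*, the inducible haem oxygenase, which frees iron from haem, was at 4.56, 5.54 and 6.71 CPM in WT and at 6.21, 7.55 and 11.2 CPM in *Snx14*-KO cerebella. The groups overlapped, and *Snx14*-KO cerebellum 3 was the highest. The log2FC was 0.58 (SE 0.246, adjusted p = 0.574) with all libraries and 0.30 without *Snx14*-KO cerebellum 3. Constitutive haem oxygenase *Hmox2*, of whose exon bases 40.2% are shared with *Cdip1*, had a log2FC of -0.10 (SE 0.0632).

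Without *Snx14*-KO cerebellum 3, 4 genes kept an unadjusted p under 0.05, *Slc7a11*, *Fth1*, *Slc40a1* and *Cp*, while 4.91% of all genes had one. The median log2FC of the 13 microglia and macrophage genes in cerebellum was 0.98 with this library and 0.26 without it, and each of the 13 was higher in *Snx14*-KO cerebella. The 13 meningeal fibroblast genes were also each higher, with a median of 1.16 and summed levels of 180 to 359 CPM in WT and 480.5 to 523 CPM in *Snx14*-KO cerebella. Astrocyte and Bergmann glia genes had a median of 0.25 over 11 genes, 9 of them higher, which was 0.12 without *Snx14*-KO cerebellum 3, and endothelial genes 0.10 over 9 genes, 7 of them higher, which was -0.06 without *Snx14*-KO cerebellum 2. Of 7 forebrain excitatory neuron genes 4 were tested in cerebellum, with a median of 0.28 and 3 of them higher. Other lists lay below 0 together with *Fth1* and *Ncoa4*. Granule cell genes had a median of -0.28 over 8 genes, 0 of them higher, and sums of 3515 to 4129 CPM in WT and 2919 to 3657 CPM in *Snx14*-KO cerebella. Likewise 0 of 6 Purkinje cell genes (median -0.17), 0 of 10 oligodendrocyte genes (-0.16), 0 of 5 red blood cell genes (-0.59) and 0 of 8 choroid plexus genes lay above 0, where the choroid plexus median was -0.76 in all and 0.34 without WT cerebellum 3. These medians also moved with single libraries, to -0.06 for Purkinje cells without *Snx14*-KO cerebellum 3, -0.06 for oligodendrocytes without WT cerebellum 1, -0.08 for red blood cells without WT cerebellum 2 and -0.15 for granule cells without *Snx14*-KO cerebellum 1. None of these marker genes was at 0 in a group, 0 passed the adjusted test, and their part in the values above was not tested.

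The 4 genes of glutathione synthesis and recycling had log2FCs of -0.08 to 0.08 in cerebellum, and the 6 of lipid peroxide defence -0.03 to 0.26. Of these genes, 0 had an unadjusted p under 0.05. *Gpx4*, the peroxidase for membrane lipids, was at 315, 316 and 302 CPM in WT and at 295, 333 and 295 CPM in *Snx14*-KO cerebella. The ranges overlapped, and the log2FC was -0.00 with an SE of 0.0704. *Gclc* and *Gclm*, the subunits of the enzyme that limits glutathione synthesis, had log2FCs of 0.08 and -0.08, glutathione synthetase *Gss* -0.07 and glutathione reductase *Gsr* -0.02. Thioredoxin reductase *Txnrd1* and the coenzyme Q reductase *Aifm2*, known as FSP1, had -0.03 and -0.02, *Gpx1* had 0.08 and *Gch1* 0.16 with an SE of 0.288. *Gpx3*, a secreted peroxidase, had a log2FC of 0.26 with an SE of 0.347, and its values were 2.67, 5.83 and 7.68 CPM in WT and 7.31, 4.63 and 7.26 CPM in *Snx14*-KO cerebella. In WT these had the same order as the choroid plexus sums, and in *Snx14*-KO cerebella, where those were 2043, 3216 and 973 CPM, they did not. With a library left out, the log2FC of *Gpx3* lay between -0.07 without WT cerebellum 1 and 0.60 without WT cerebellum 3.

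On the side of lipid oxidation, *Acsl4*, which loads arachidonic acid for membrane phospholipids, and the reductase *Por* had log2FCs of 0.10 and 0.13. Those of the lipoxygenases *Alox5* and *Alox8* were 0.70 and 0.33 with SEs of 0.417 and 0.283, and 0.43 to 1.099 and 0.08 to 0.50 with a library left out, at levels of 0.346 to 1.05 CPM for *Alox5*. The antioxidant regulator *Nfe2l2* (NRF2), its inhibitor *Keap1* and its target *Nqo1* had 0.12, 0.08 and 0.12. *Slc7a11* and *Hmox1* are also known NRF2 targets. The antioxidant response element (TGAC and GC with 3 bases of any kind between them, on either strand) was found in 5 (11.1%) of the 45 RefSeq promoters of 29 genes (GRCm38.p6, from 250 bases before to 50 bases after the start), those of *Gclm*, *Ncoa4*, *Nfe2l2*, *Slc39a8* and *Txnrd1*, against 12.4% of 32851 promoters. Iron regulatory protein genes *Aco1* and *Ireb2* had 0.13 and -0.07, the polyamine enzyme *Sat1* 0.07, and the channels *Vdac2* and *Vdac3* -0.02 and 0.01.

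**Figure D2:**
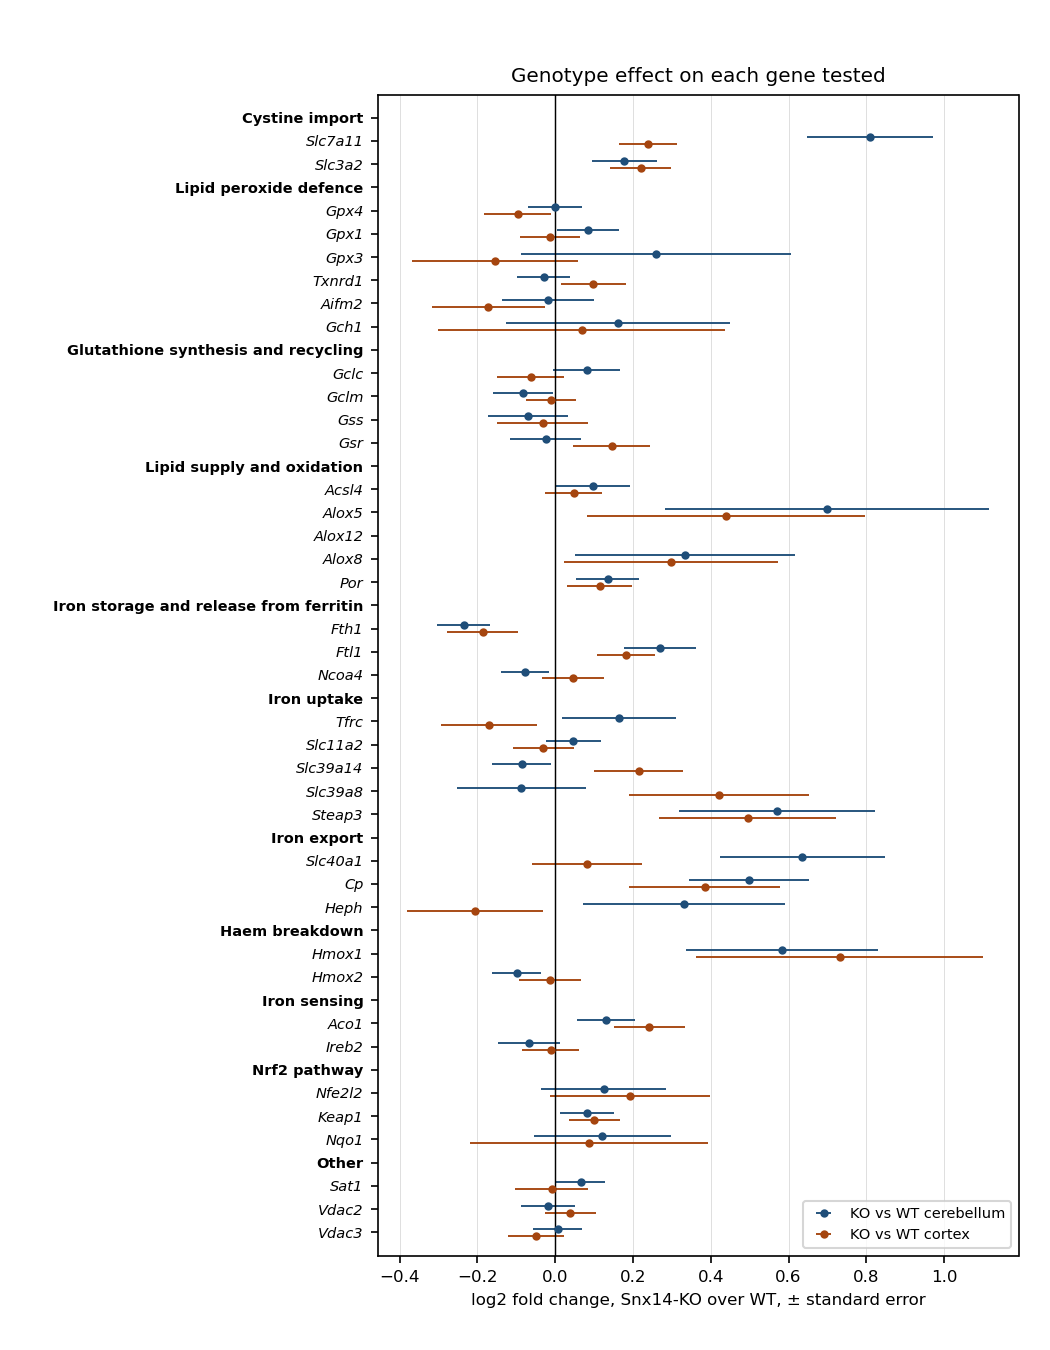
Log2FC of *Snx14*-KO over WT for the 37 tested genes in cerebellum and in cortex, ordered by role, with bars for the standard error. *Slc7a11* in cerebellum, at 0.81, lies farthest from 0 relative to its error, and *Fth1* lies below 0 and *Ftl1* above 0 in both tissues, without an adjusted p under 0.05 for any gene.

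The cerebral cortex, which the study set against the cerebellum, was compared in the same way. None of the 37 tested genes (0) passed an adjusted p of 0.05, where 0.00548% of 18255 genes did. *Slc7a11*, *Slc3a2*, *Ftl1* and *Aco1*, 4 genes (10.8%), had an unadjusted p under 0.05, each higher in *Snx14*-KO cortices, against 4.5% of all genes in either direction, 2.24% being higher and 2.26% lower. The groups did not overlap for 3 genes, each of them higher, against 4.57% of all genes higher and 4.67% lower in this way. DESeq2 called 0 of 31 genes with an adjusted p, and 0.119% of all genes. The median log2FC was 0.07 over the 37 genes, 22 of which were above 0, and 0.00 over all genes. Without *Snx14*-KO cortex 2 it was 0.034 over the genes.

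*Slc7a11* was at 59.2, 55.5 and 56.0 CPM in WT cortices and at 63.3, 72.2 and 65.8 CPM in *Snx14*-KO cortices. The *Snx14*-KO cortices all lay above the WT cortices, and *Snx14*-KO cortex 2 was the highest. Its log2FC was 0.24 (SE 0.0740, adjusted p = 0.996 by the quasi-likelihood test), and 0.18 without that library.

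*Slc3a2* was at 100.4, 103 and 92.6 CPM in WT and at 105, 123 and 117 CPM in *Snx14*-KO cortices, again without overlap. The log2FC was 0.22 (SE 0.0785, adjusted p = 0.996) and 0.16 without *Snx14*-KO cortex 2. *Aco1*, which acts as an iron regulatory protein when it lacks its iron-sulfur cluster, was at 34.0, 31.5 and 29.6 CPM in WT and at 36.9, 40.5 and 35.0 CPM in *Snx14*-KO cortices. These groups did not overlap either, and the log2FC was 0.24 (SE 0.0909, adjusted p = 0.996) and 0.18 without *Snx14*-KO cortex 2.

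Ferritin had the same signs as in cerebellum. *Ftl1* was at 271, 279 and 257 CPM in WT and at 318, 319 and 277 CPM in *Snx14*-KO cortices, where *Snx14*-KO cortex 3 lay within the WT range. Its log2FC was 0.18 (SE 0.0739, adjusted p = 0.996). *Fth1* was at 1391, 1524 and 1288 CPM in WT and at 1307, 1049 and 1340.1 CPM in *Snx14*-KO cortices, which overlapped, with *Snx14*-KO cortex 2 the lowest. The log2FC of *Fth1* was -0.19 (SE 0.0917) and -0.08 without that library.

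*Snx14*-KO cortex 2, the library rich in meningeal genes, was also the highest cortex for *Hmox1* (11.6 CPM against 2.79 to 5.84 CPM), *Cp* (20.2 against 10.4 to 13.5 CPM), *Steap3* (11.6 against 4.90 to 7.68 CPM) and *Nfe2l2* (22.5 against 12.2 to 16.2 CPM). The log2FCs in cortex were 0.73, 0.38, 0.49 and 0.19 for these genes with this library and 0.14, 0.10, 0.21 and -0.14 without it. Over the 13 meningeal genes the median log2FC in cortex was 0.81 with it and 0.17 without it, and over the 10 oligodendrocyte genes -0.30 and -0.14. Endothelial genes were higher in 9 of 9 cases (median 0.25, and 0.15 or more with any library left out). Microglia genes were higher in 10 of 13 (0.10, and 0.003 without *Snx14*-KO cortex 2) and astrocyte genes in 9 of 11 (0.11, and 0.02 without WT cortex 3). Red blood cell genes were higher in 0 of 5 (-0.46, and -0.30 without WT cortex 2). Of 8 choroid plexus genes 4 were tested, and 0 of these were higher (-1.15, and -0.63 without WT cortex 1). The part of these cells in the values was not tested. Without *Snx14*-KO cortex 2, *Slc7a11* alone of the 37 genes had an unadjusted p under 0.05, against 4.45% of all genes.

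**Figure D3:**
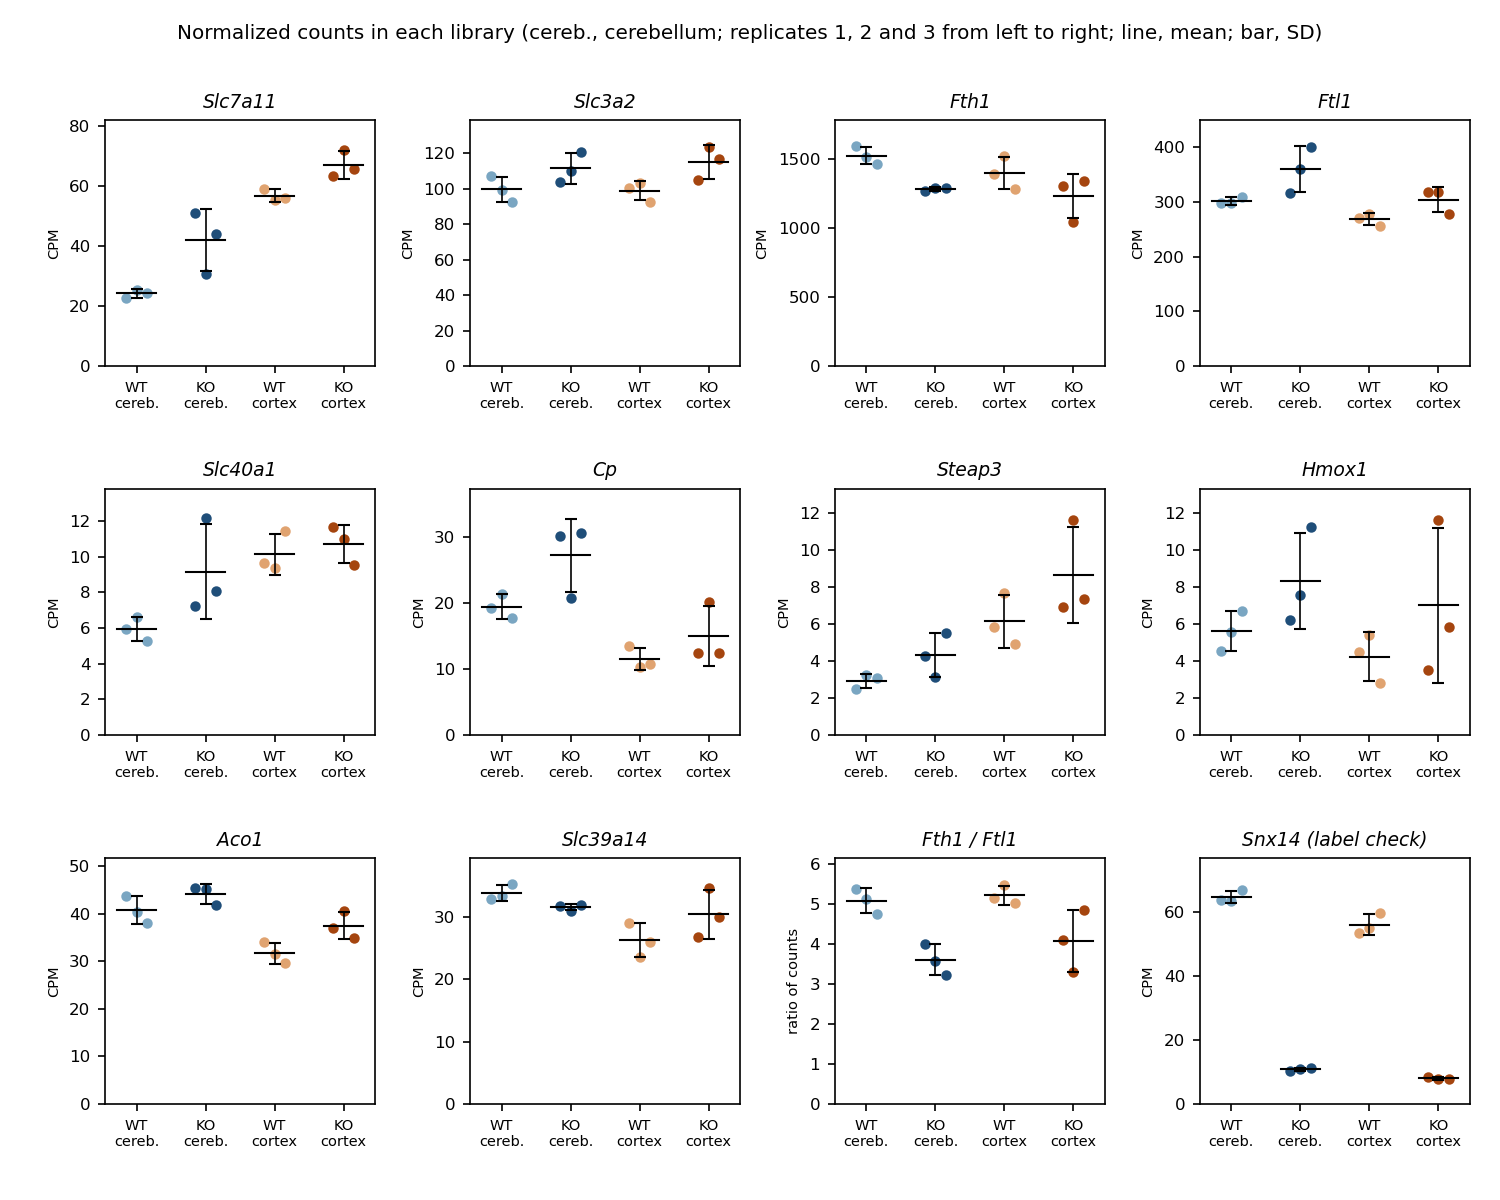
CPM in each library for the 10 genes with an unadjusted p under 0.05 between genotypes or in the interaction of genotype and tissue, the ratio of *Fth1* to *Ftl1* counts, and *Snx14*, with points for libraries, lines for means and bars for the SD. The *Snx14*-KO cerebella lie above the WT cerebella for *Slc7a11* (30.8 to 51.1 against 22.7 to 25.4 CPM) and below them for *Fth1* (1268 to 1296 against 1469 to 1597 CPM).

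An interaction of genotype and tissue, fitted to all 12 libraries, asked whether *Snx14* loss moved the genes unequally in cerebellum and cortex. Of 37 tested genes, 0 passed an adjusted p of 0.05 by the quasi-likelihood test, as did 0 of 19380 genes, and DESeq2 called 0 of the same genes and 0.152% of all genes. An unadjusted p under 0.05 was found for 2 genes, against 5.68% of all genes. For *Slc7a11*, the cerebellar log2FC exceeded the cortical one by 0.56 (SE 0.191, adjusted p = 0.628), and without *Snx14*-KO mouse 2 by 0.79, which passed (adjusted p = 0.00353). Without *Snx14*-KO mouse 1 it was 0.35 and without WT mouse 1 it was 0.48, and in neither case was the unadjusted p under 0.05. *Slc39a14*, a transporter of iron, zinc and manganese, was at 32.8, 33.3 and 35.3 CPM in WT and 31.7, 31.0 and 31.8 CPM in *Snx14*-KO cerebella, but at 29.1, 23.6 and 26.0 CPM in WT and 26.8, 34.6 and 29.9 CPM in *Snx14*-KO cortices. It was lower without overlap in *Snx14*-KO cerebella, while the cortices overlapped, and the difference of the log2FCs was -0.31 (SE 0.141, adjusted p = 0.846). It was -0.20 without *Snx14*-KO mouse 2, whose cortex was the highest, and the unadjusted p stayed under 0.05 without *Snx14*-KO mouse 1 or WT mouse 1 but not without any of the other mice. For *Slc40a1* the difference was 0.54 (SE 0.264, adjusted p = 0.914), and 0.30 without *Snx14*-KO mouse 2.

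The tissues were then compared within each genotype. In WT mice, 22 of the 37 tested genes (59.5%) passed an adjusted p of 0.05 between cerebellum and cortex, close to the 57.4% of 18543 genes that did. Of these, 17 were higher in cerebellum, against 28.2% of all genes, and 5 were lower, against 29.2%. The 17 include 3 of the 4 genes of glutathione synthesis and recycling (*Gclm*, *Gss* and *Gsr*), with *Nfe2l2* and *Nqo1*. They also include both iron regulatory protein genes and all of *Sat1*, *Vdac2* and *Vdac3*. The lower ones were *Slc7a11*, *Acsl4*, *Slc40a1*, *Steap3* and *Keap1*. An absolute log2FC over 1 was seen for 5 of the called genes, against 23.4% of all genes.

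*Nqo1*, a quinone reductase, was at 9.28, 12.8 and 14.7 CPM in WT cerebella and at 2.34, 3.92 and 3.42 CPM in WT cortices. The tissues did not overlap, with a log2FC of 1.93 (SE 0.231, adjusted p = 4.01e-05 by the quasi-likelihood test). With any library left out the log2FC was 1.73 to 2.09. The WT cerebella had the same order for *Nqo1* as for the choroid plexus sums, while the *Snx14*-KO cerebella, at 13.1, 12.3 and 14.3 CPM, had the reverse order. *Gch1* was also higher in cerebellum, at 2.39, 1.62 and 1.5 CPM against 0.638, 0.859 and 0.854 CPM in cortex, without overlap. Its log2FC was 1.23 (SE 0.322, adjusted p = 0.00748), from 12 to 43 counts per library.

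*Slc7a11* went the other way, with all WT cerebella below all WT cortices, at a log2FC of -1.23 (SE 0.0770, adjusted p = 2.6e-07). *Acsl4* was at 53.8, 56.8 and 44.0 CPM in WT cerebella and at 117, 115 and 124 CPM in WT cortices, a log2FC of -1.20 (SE 0.0917, adjusted p = 1.23e-06). *Steap3* was at 5.84, 7.68 and 4.90 CPM in WT cortices, above each WT cerebellum, and its log2FC was -1.06 (SE 0.217, adjusted p = 0.00173). Marker genes of other cells also differed between the WT tissues. The median log2FC was 4.99 over 8 choroid plexus genes, 1.56 over 5 red blood cell genes and 1.40 over 11 astrocyte genes, then 0.66 over 13 meningeal, 0.58 over 10 oligodendrocyte and 0.42 over 9 endothelial genes, and -1.03 over 13 microglia genes. Their part in these values was not tested.

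In *Snx14*-KO mice, 17 of the 37 genes (45.9%) passed between the tissues, against 52.1% of all genes, 13 of them higher in cerebellum, against 25.5%, and 4 lower, against 26.6%. All 17 were also called in WT mice in the same direction, which is 100% of the *Snx14*-KO calls and 77.3% of the WT calls, against 89.7% and 81.8% over all genes tested in both. The log2FCs in *Snx14*-KO mice were 1.95 for *Nqo1*, 1.31 for *Gch1*, -1.16 for *Acsl4*, -1.0 for *Steap3* and -0.67 for *Slc7a11*. By the quasi-likelihood test, called in WT mice but not in *Snx14*-KO mice were *Ftl1*, *Slc40a1*, *Slc39a14*, *Slc39a8* and *Ireb2*, none of which passed the test of the difference between the genotypes. DESeq2 called 20 of 38 genes between WT tissues, against 43.7% of all genes, and 16 of 38 between *Snx14*-KO tissues, against 39.9%, with *Ftl1* called in both (adjusted p = 0.0493 in *Snx14*-KO mice).

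**Figure D4:**
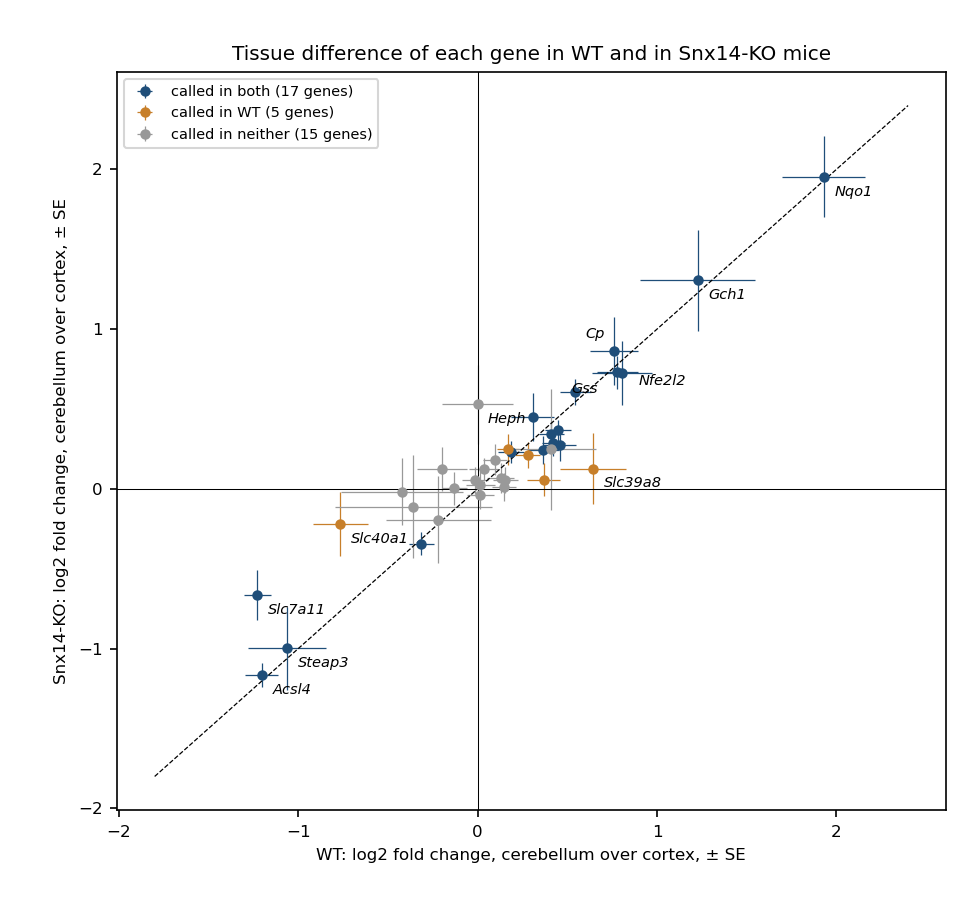
Log2FC of cerebellum over cortex for the 37 tested genes in WT mice (horizontal) and in *Snx14*-KO mice (vertical), with bars for the standard error and a dashed line of equal values. Of the genes, 17 were called in both, 5 in WT mice, and *Slc7a11* (-1.23 and -0.67) and *Slc40a1* (-0.76 and -0.22) lie above the line.

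A wider list of 78 genes of the same pathways was examined for comparison. In cerebellum 71 of them were tested, 38 were above 0 and 33 below, 5 higher and 2 lower ones had an unadjusted p under 0.05 (5.78% and 2.37% of all genes), and 0 passed the adjusted quasi-likelihood test. DESeq2, which called 0.996% of all genes, called 1 of them, the glutathione transferase *Gstp1*, at 77.8 ± 1.59 CPM (SD, n = 3) in *Snx14*-KO and 62.8 ± 1.40 CPM in WT cerebella, a log2FC of 0.32 (SE 0.0627). In cortex 73 were tested, 46 were above 0 and 27 below, 5 higher and 2 lower ones had an unadjusted p under 0.05 (2.24% and 2.26% of all genes), and 0 passed the quasi-likelihood test. There DESeq2, with 0.119% of all genes called, called 1, transferrin *Trf*, the iron carrier that oligodendrocytes also make, at 174 ± 11.9 CPM (SD, n = 3) in *Snx14*-KO and 233 ± 22.3 CPM in WT cortices, a log2FC of -0.42 (SE 0.0835). With a library left out, the log2FC of *Trf* lay between -0.49 without WT cortex 1 and -0.35 without WT cortex 3. It was -0.48 without *Snx14*-KO cortex 2, the library lowest in oligodendrocyte genes, and the part of oligodendrocytes in it was not tested. Squalene synthase *Fdft1* was the other wider gene with an unadjusted p under 0.01 in cortex, with a log2FC of 0.34 (SE 0.0792) and 0.26 without *Snx14*-KO cortex 2.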

How the data were processed

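After adapter trimming and STAR alignment to GRCm38, the authors ran featureCounts (Subread 2.0.1) on GENCODE genes, and the deposited values are raw counts of read pairs. Per the file headers, a pair over more than 1 gene counts for every such gene, and neither strand nor multi-mapping reads were used. The labels name a library kit without strand, the study's methods a strand-specific one, so antisense reads may be included. Which of 2 sequencing providers made each library, and the sex of each mouse, are not given in the sources used here. Features that name no gene held 0.0506% to 0.0632% of counts and were left out, and 0 columns went unused.

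Genes kept by filterByExpr were tested with edgeR 4.0.16 (TMM, glmQLFit, glmQLFTest) in R 4.3.3, with Benjamini-Hochberg adjustment over all genes tested, on the 3 libraries of each of the groups compared, or on 12 libraries for the interaction. The threshold was an adjusted p of 0.05. The standard error is the log2 fold change divided by the root of the F statistic. Alternatives were DESeq2 1.42.0, its size factors in edgeR, no low-count filter, a replicate block, 1 fit of 12 libraries and each library left out. On simulated data with changed genes of a log2 size of 1, the cerebellum test recovered 56% and the cortex test 76%. The simulation changed 200 genes at once, at log2 sizes of 0.5 to 2, and gave 14 false calls in cerebellum and 16 in cortex. The data gave 1 call in each tissue, which makes the adjusted threshold stricter than in the simulation, so recovery in the data may be lower.

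No library repeated another (0 identical pairs). KO and WT libraries of the same number correlated by -0.0917 to 0.0811 in their deviations from the group means. Cerebellum and cortex of a genotype share a mouse number in the titles, with correlations of 0.0178 to 0.338. As even these correlations can be low, the check cannot tell whether the numbers pair KO and WT mice. Genes were named where an unadjusted p was under 0.05 between genotypes or in the interaction, where the adjusted p was under 0.05 and the log2 fold change over 1 between WT tissues, and, in the wider list, by an adjusted p under 0.05 with either tool or an unadjusted p under 0.01. The members and lists were chosen with earlier results of these data known.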

Additional observations from a re-analysis of the deposited data

How the results depend on the processing

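Of 251 values of *Snx14* and the named genes among the 38 under an alternative, those of the wider list not counted, 243 kept their direction and their side of the threshold, 8 passed the threshold only under the alternative, and 0 reversed. In cerebellum, the number of the 37 genes past an adjusted p of 0.05 was 0 in the quasi-likelihood test, 2 with DESeq2, 1 (*Slc7a11*) with no low-count filter, 1 (*Slc7a11*) with 1 fit of 12 libraries and 0 to 2 with 1 library left out, where the 2 were *Slc7a11* and *Cp* without *Snx14*-KO replicate 2. At an unadjusted p under 0.05, a count that was added to the alternatives after the data had been seen, there were 7 genes and 4 to 7 with a library left out, with 4 without *Snx14*-KO replicate 3. In cortex this count was 4, and it was 7 with DESeq2, 10 with no filter and 1 to 8 with a library left out, with 1 without *Snx14*-KO replicate 2, 2 without WT replicate 3, and 8 without *Snx14*-KO replicate 1 or 3. For the interaction, 0 genes passed, against 1 (*Slc7a11*) with no filter and 0 to 1 with a mouse left out. At an unadjusted p under 0.05 there were 2, against 4 with no filter and 1 to 4 with a mouse left out, with 1 without WT mouse 1 or *Snx14*-KO mouse 3 and 4 without *Snx14*-KO mouse 1 or 2. With a library or mouse left out, the median log2 fold change over the genes ranged from 0.061 to 0.091 for the genotypes in cerebellum, from 0.034 to 0.092 for the genotypes in cortex, from 0.13 to 0.19 for the tissues in WT mice, from 0.11 to 0.17 for the tissues in *Snx14*-KO mice, and from -0.032 to 0.036 for the interaction, so the last has no settled sign. The replicate block by mouse gave 21 genes called between WT tissues and 17 between *Snx14*-KO tissues, with a median of 0.15 for the latter, and 0 for the interaction. Blocking KO and WT by number, a pairing that the titles do not state, left 0 calls in both tissues and gave 6 genes at an unadjusted p under 0.05 in each. No blocked fit moved a count of genes by more than 1.5 times. The cause of these shifts was not tested, and leaving out a library also lowers the number of samples. With 3 libraries per group, simulated log2 changes of 0.5 were recovered at 22% in cerebellum, 40% in cortex and 12% in the interaction, so changes of this size can be missed. Recovery may be lower in the data, where fewer genes were called than in the simulation.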
